A study of Homo sapiens with 9 samples.

Results

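The transcriptome of A375R cells exposed to the full degrader R4VPL3-1 was compared with that of cells given DMSO, the vehicle. All 3 libraries of the degrader and all 3 of the control were taken by the names of their columns, so 6 of the 9 libraries of the series entered this comparison, and of 62710 genes in the deposited table the 15230 with a mean of at least 10 over all 9 libraries were tested. A375R is a derivative of the human melanoma line A375 that is resistant to PLX4032, a vemurafenib analogue that inhibits BRAF. By the study's methods the cells were kept in medium with 2 µM PLX4032, so all groups come from cells grown under a BRAF inhibitor, and the labels do not say whether it was present during the exposure. R4VPL3-1 is a PROTAC-like molecule in which a moiety that binds the ubiquitin ligase RNF4 is joined through a linker to a moiety that recruits VHL, the substrate receptor of another ubiquitin ligase. The third group received VHL-r, the VHL-recruiting moiety on its own. Both compounds were given at 10 µM for 2 h, and each group had 3 biological repeats. The control libraries carry the label WT and no dose, and the study's design text names their treatment as DMSO. All groups are the same resistant line, so no library shows the parental cells, and none received the RNF4-binding moiety alone.

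A degrader of this type is built to hold a chosen protein beside a ubiquitin ligase, which marks the protein with ubiquitin for destruction by the proteasome. RNA responds to a small molecule within hours through factors that already sit in the cell: HSF1 turns on chaperone genes when unfolded proteins accumulate, NRF2 turns on antioxidant genes when reactive molecules modify its partner KEAP1, ATF4 is made when translation initiation is restrained, and AP-1 factors such as JUN and FOS follow the MAP kinases. In BRAF-mutant melanoma the ERK pathway also keeps up the transcripts of its own inhibitors, such as the Sprouty proteins and the DUSP phosphatases, so their level follows ERK output.

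The values are normalized counts, that is, reads per gene divided by a library's size factor, and they measure a gene's share of a library rather than RNA per cell. Loss of cells and a lower RNA content per cell cannot be told apart in such bulk samples. The libraries held 26435568 to 32085626 reads on genes, with a median of 28165279. Values are given throughout in the order of replicates 1, 2 and 3. Log2 fold changes are differences of log2(normalized count + 1), a scale that understates the change of genes with few reads. A gene was called where limma gave an adjusted p of at most 0.05 (Benjamini-Hochberg over all 15230 genes). An exact permutation test of 3 libraries against 3 cannot go below p = 0.1, so no such test was used for single genes.

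The response at 2 h was broad and mostly small. Of the 15230 genes, 3792 (24.9%) were called, 1995 of them higher (13.1%) and 1797 lower (11.8%). The change was under 1.5-fold for 2514 of the called genes (66.3%), and the median absolute log2 difference over all tested genes was 0.14. A change of 2-fold or more was called for 396 genes that rose and 195 that fell. At 4-fold or more the numbers were 74 and 18, and at 8-fold or more they were 15 and 0. The 3 degrader libraries lay wholly above or wholly below the 3 control libraries in 95.8% of called genes, beside 38.0% of all tested genes. Part of the excess of large rises comes from the filter, since a gene with almost no reads in DMSO was tested only where a treated group was higher: the DMSO mean was below 10 in 138 of the 396 rises, in 41 of the 74 and in 8 of the 15. With a DMSO mean of at least 10 there were 258 rises and 195 falls of at least 2-fold, and with a mean over all libraries of at least 50 the 591 changes of 2-fold or more became 263. At DMSO means from 1000 to 10000 the balance was the other way, with 12 rises and 48 falls of 2-fold or more. The median difference over all tested genes was -0.0063.

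**Figure D1:**
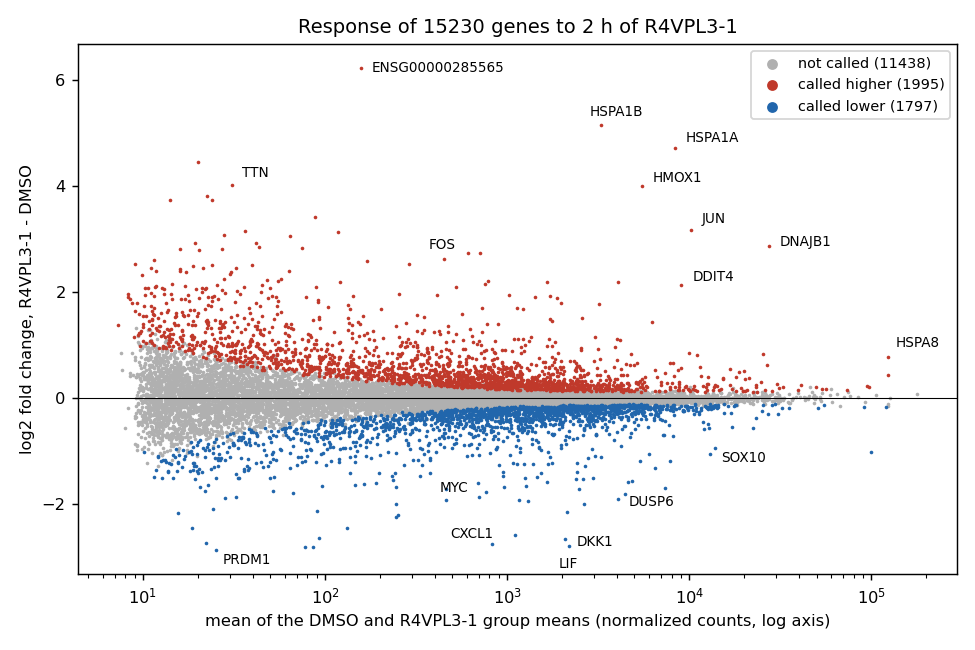
Mean of the DMSO and R4VPL3-1 group means (horizontal, normalized counts on a log axis) against the log2 fold change of R4VPL3-1 over DMSO (vertical) for the 15230 tested genes, with the 1995 called higher and the 1797 called lower in colour and the others in grey. The points at the left reach further upward than downward, and the 15 genes called at 8-fold or more all rose, 8 of them from a DMSO mean below 10.

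Genes already abundant in control cells seldom rose far. Among the 449 genes with a DMSO mean above 10000, 0 rose by 2-fold or more and 4 fell that far. Those 4, looked up after their values were seen, were SOX10, THBS1, PHLDA1 and CCN1. THBS1, which encodes the matrix glycoprotein thrombospondin-1, stood at 159051, 131149 and 110718 in DMSO and at 63318, 70098 and 63524 in R4VPL3-1, a log2 change of -1.01 (adjusted p = 1.07e-08). At the other end, 352 genes had a DMSO mean below 10 and met the filter only through the treated libraries, so the filter itself kept those with a higher value there. Of these, 148 were called higher and 0 lower, counts from which nothing is read. Among protein-coding genes, those that rose by 2-fold or more had a median span of 17.0 kb and those that fell that far 13.2 kb, against 38.5 kb for genes that were not called.

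Transcripts of the proteins that the compound was built to bring together did not pass the test. RNF4 had 466, 383 and 372 normalized counts in DMSO and 382, 444 and 395 in R4VPL3-1, a log2 difference of 0.0043 (adjusted p = 0.983), and the groups overlapped. VHL had 1532, 1752 and 1823 against 1653, 1796 and 1745, a difference of 0.03 (adjusted p = 0.795), also with overlap. These are transcript levels, and they say nothing of the proteins. Of the 19 tested genes of RNF4 and the SUMO pathway, the modifier that RNF4 recognizes, PIAS3 was higher (0.22) and SENP3, SUMO3 and SUMO2 were lower (-0.23, -0.22 and -0.16), which is 4 of 19 beside the 24.9% of all genes.

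The cell type label was checked against lineage markers. SOX10, the transcription factor that defines the melanocyte lineage, was abundant, whereas MLANA, a pigment cell antigen, was at 0 in every library. The summed level of the 9 melanocyte and melanoma markers was 22880 to 24659 in the DMSO libraries and 12215 to 14591 in the R4VPL3-1 libraries, with most of the gap in SOX10. Sums of keratinocyte markers were 2208 to 2307 in DMSO and 1915 to 2064 in R4VPL3-1. Epithelial sums were 6936 to 7931 and 6382 to 6644, fibroblast sums 1676 to 2233 and 1745 to 2214, endothelial sums 632 to 698 and 421 to 511, and immune sums 122.6 to 177 and 91.5 to 136. The part of these shifts in the results below was not tested.

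To see where the response was strong and where it was flat, 58 lists of genes with a shared function were counted. A list was described as strong where the share of its tested members that were called was at least 1.5 times the 24.9% of all genes, and as flat where it was at most 0.5 times. By this description 29 lists were strong, 20 lay near the background, 8 were flat and 1 had under 5 tested members. The 8 flat lists were the CCT chaperonin, the proteasome, cytosolic tRNA synthetases, cytosolic ribosomal proteins, TCA cycle enzymes, nuclear-encoded oxidative phosphorylation subunits, DNA replication and homologous recombination. Lists near the background included endoplasmic reticulum stress and folding (29.6% called), necroptosis machinery (31.8%), autophagy and lysosome (20.8%), selenoproteins (17.6%), the circadian clock (33.3%) and pigment cell lineage (30.0%). The lists overlap, with 64 symbols in more than 1 of them.

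**Figure D2:**
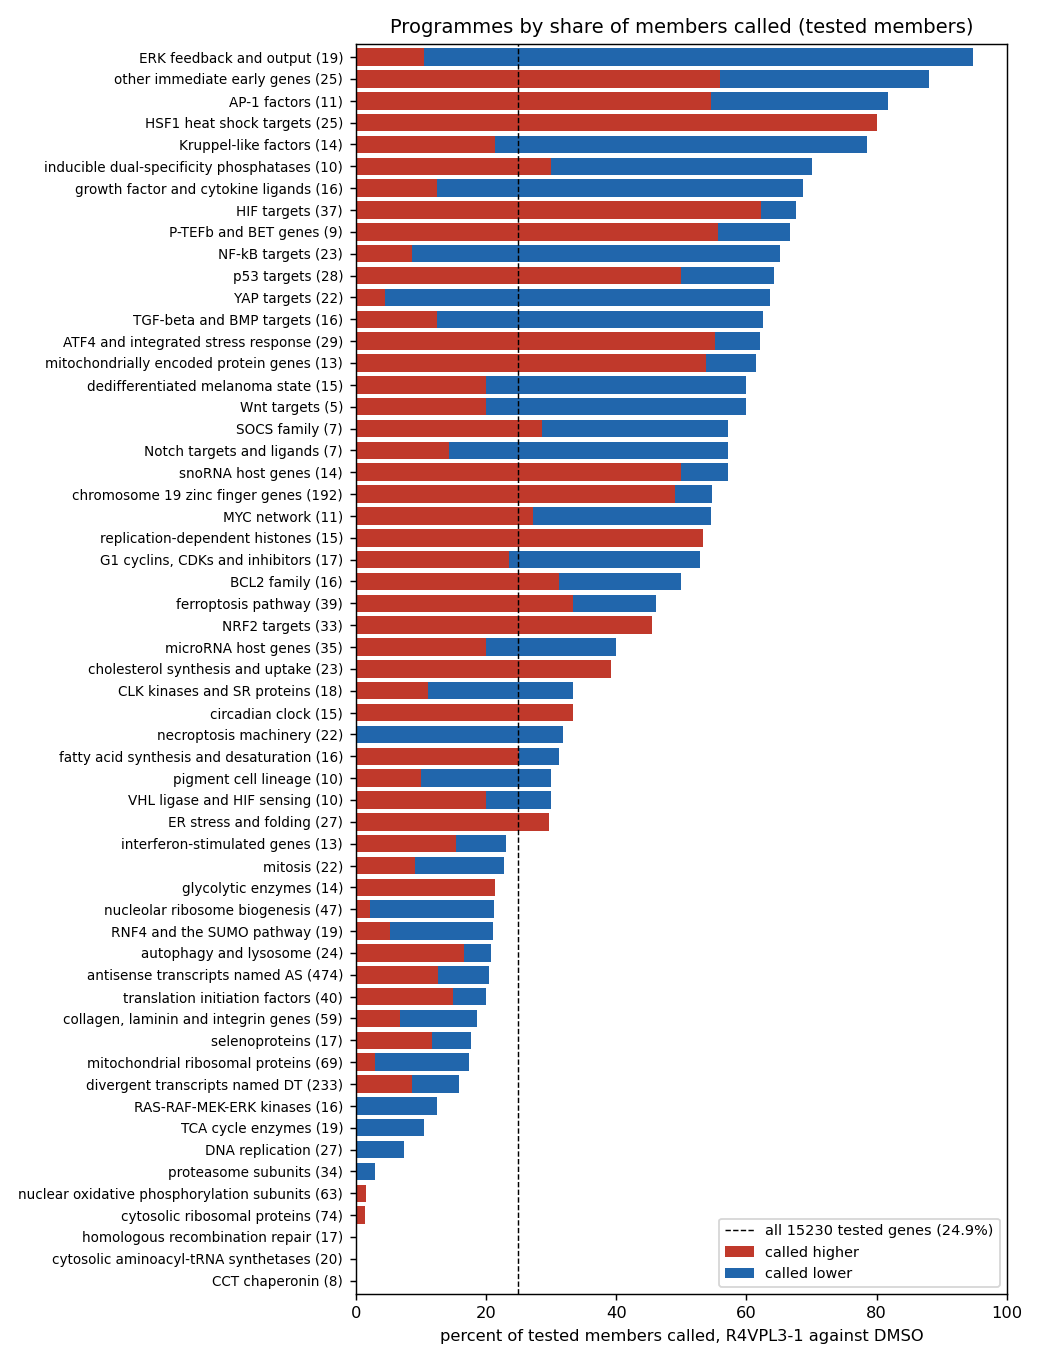
Percent of the tested members of 57 gene lists called higher (red) and, stacked beyond it, called lower (blue) in R4VPL3-1 against DMSO, with the number of tested members in brackets and a dashed line at the 24.9% of all tested genes. The bars of heat shock, AP-1 and ATF4 lists are mainly red and those of ERK feedback and NF-kB lists mainly blue, while ribosomal proteins and the proteasome show almost no bar.

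Heat shock genes gave the tallest rises. HSF1, the heat shock factor, binds inverted repeats of GAA in the promoters of chaperone genes, and 3 of these promoters are shown because the core of the element is visible in them. They were taken from RefSeq (GRCh38.p14) and run from 250 bases before to 50 after an annotated start: HSPA1A at chr6:31815293-31815592 on the + strand, DNAJB1 at chr19:14518348-14518647 on the - strand and HSPA8 at chr11:123062087-123062386 on the - strand. Capitals mark each match to GAANNTTC or TTCNNGAA, where neighbouring matches may share letters. Both forms read the same on either strand.
HSPA1A: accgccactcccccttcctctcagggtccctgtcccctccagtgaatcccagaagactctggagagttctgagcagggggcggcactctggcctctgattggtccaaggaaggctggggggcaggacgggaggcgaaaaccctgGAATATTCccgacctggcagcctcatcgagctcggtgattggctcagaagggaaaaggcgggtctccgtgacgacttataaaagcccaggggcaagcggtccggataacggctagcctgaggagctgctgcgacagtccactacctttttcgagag
DNAJB1: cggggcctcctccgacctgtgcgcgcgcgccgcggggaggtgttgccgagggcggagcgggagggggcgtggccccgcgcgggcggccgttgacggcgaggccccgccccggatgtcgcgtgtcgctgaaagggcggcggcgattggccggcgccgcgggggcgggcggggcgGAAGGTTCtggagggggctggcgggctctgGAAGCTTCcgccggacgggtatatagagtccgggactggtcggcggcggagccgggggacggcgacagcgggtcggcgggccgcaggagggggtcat
HSPA8: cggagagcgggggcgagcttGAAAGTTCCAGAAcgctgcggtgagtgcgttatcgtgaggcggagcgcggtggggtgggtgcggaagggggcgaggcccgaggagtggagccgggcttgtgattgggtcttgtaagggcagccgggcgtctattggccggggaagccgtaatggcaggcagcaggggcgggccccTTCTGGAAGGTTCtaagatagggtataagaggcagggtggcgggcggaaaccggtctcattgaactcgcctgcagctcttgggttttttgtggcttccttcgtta
The match in HSPA1A began 106 bases before the start, those in DNAJB1 began 77 and 47 bases before it, and the 4 in HSPA8 lay between 230 and 50 bases before it. The core was present in 15 of the 22 genes of the HSF1 list that had a promoter in the table (68.2%), against 14.1% of 10947 tested genes and 13.8% of the 203 genes that rose by 2-fold or more. The list is one of known HSF1 targets, so the first share describes how it was drawn up. A match of letters is not evidence of binding.

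HSPA1A (ENSG00000204389, chr6:31815543-31817946), an inducible HSP70 chaperone, stood at 618, 646 and 561 in DMSO and at 18274, 16727 and 13459 in R4VPL3-1, which is 26.5 times the control mean and a log2 change of 4.72 ± 0.09 (SE; adjusted p = 7.91e-19). Its neighbour HSPA1B rose from 174, 176 and 184 to 6910, 6878 and 5284, a change of 5.14 ± 0.11 (adjusted p = 6.61e-18). DNAJB1, the HSP40 partner that loads clients onto HSP70, rose from 6751, 6640 and 6348 to 56176, 49152 and 39199, a change of 2.86 ± 0.08 (adjusted p = 6.07e-16). In all 3 genes every degrader library lay far above every control library, and replicate 1 was the highest and replicate 3 the lowest of the degrader libraries. HSPA1A and HSPA1B are near copies: 69.5% of the 100-base windows of the first and 72.8% of those of the second occur in the other, so reads may be shared between them and their separate levels are uncertain. An unnamed gene, ENSG00000285565, overlaps the end of HSPA1B on the same strand and shares 92.3% of its windows with it. Its rise from 3.63, 1.97 and 4.06 to 376, 327 and 230 is therefore not separable from that of HSPA1B.

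The rest of the chaperone machinery rose less, or did not pass the test. Of 25 tested HSF1 targets, 20 were called higher and 0 lower, with a median log2 difference of 0.34 against -0.0063 over all genes. The constitutive HSP70, HSPA8, rose from 94787, 92944 and 87229 to 161729, 156767 and 148481, a change of 0.76 (adjusted p = 6.29e-11). That gene was among the most abundant transcripts, and its groups were far apart although the fold was small. The co-chaperone BAG3 rose from 3373, 3262 and 3363 to 11077, 9030 and 7301 (1.43), HSPH1 rose by 0.62 and DNAJA1 by 0.49. The cytosolic HSP90 genes HSP90AA1 and HSP90AB1 rose by 0.43 and 0.23, and the mitochondrial chaperone HSPD1 by 0.24. The polyubiquitin gene UBB rose by 0.40. By contrast 0 of the 8 subunits of the CCT chaperonin, which folds actin and tubulin, were called. Of 34 tested proteasome subunits 0 were higher, and the 1 called lower, PSMD12, changed by -0.12, a call lost under several other settings. In the endoplasmic reticulum 8 of 27 folding and stress genes were higher and 0 lower, 29.6% beside the 24.9% of all genes. The largest rises were in the stress sensor ERN1 (1.53), HERPUD1 of the degradation machinery (1327, 1302 and 1421 against 4067, 3720 and 3664) and the co-chaperone DNAJB9 (1.40). VHL-r against DMSO called 10 of the 27 higher and 0 lower, and R4VPL3-1 was above VHL-r in 3 and below it in 0. HSPA5, the main chaperone of that compartment, changed from 27495, 27207 and 28383 to 31295, 33341 and 34996, a difference of only 0.26 (adjusted p = 0.000337). Of 24 autophagy and lysosome genes, 4 were higher and 1 lower, the highest being the cargo receptor SQSTM1 (0.50).

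AP-1 and the other immediate early genes split into rises and falls. JUN, the core AP-1 subunit, is shown with its promoter because the known site through which AP-1 and ATF factors act on it lies there: chr1:58783998-58784297 on the - strand, with capitals marking the match to TGACATCA that begins 67 bases before the start.
JUN: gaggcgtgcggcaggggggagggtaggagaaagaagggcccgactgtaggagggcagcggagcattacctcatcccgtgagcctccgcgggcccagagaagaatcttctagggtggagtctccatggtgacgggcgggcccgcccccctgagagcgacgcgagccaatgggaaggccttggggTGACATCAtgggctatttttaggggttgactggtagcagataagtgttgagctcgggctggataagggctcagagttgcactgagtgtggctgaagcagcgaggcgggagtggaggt
With TGACTCA and TGACGTCA also searched, on both strands, a match was present in 5 of 9 AP-1 genes with a promoter in the table (55.6%), in 10.7% of tested genes and in 15.3% of those that rose by 2-fold or more. JUN (ENSG00000177606) stood at 2301, 1813 and 1853 in DMSO and at 23741, 19158 and 12252 in R4VPL3-1, 9.24 times the control mean, a change of 3.16 ± 0.14 (adjusted p = 9.51e-13). FOS rose from 161, 122 and 191 to 1251, 1145 and 792 (2.74, adjusted p = 2.52e-11), and ATF3, a stress-induced repressor of the same family, from 1071, 657 and 655 to 3891, 2855 and 2130 (1.89, adjusted p = 1.80e-08). In each of the 3 genes the lowest degrader library was above the highest control library. JUND, JUNB and MAFF rose by 1.16, 0.73 and 0.45, while FOSL1, BATF3 and FOSL2 fell by 0.55, 0.42 and 0.28. That is 6 higher and 3 lower of 11 tested.

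Of 25 further immediate early genes, 14 were higher and 8 lower. EGR1, a zinc finger factor induced by growth signals, rose from 728, 474 and 610 to 2457, 2842 and 2863 (2.19, adjusted p = 6.55e-11), and ARC, known for its role at synapses, rose from 58.1, 45.3 and 40.6 to 266, 305 and 301 (2.59, adjusted p = 1.69e-11). ZFP36, which destabilizes AU-rich transcripts, rose by 1.67, IER5 by 1.77 and GADD45B by 1.12. SGK1, a serum- and glucocorticoid-induced kinase, fell from 3685, 3503 and 3200 to 641, 856 and 855 (-2.15, adjusted p = 1.16e-13). EGR3 fell by 0.70 and ZFP36L1 by 0.87, so relatives of EGR1 and ZFP36 moved the other way. Of 14 tested Kruppel-like factors 8 were lower, with a median of -0.44. KLF9 fell from 3292, 3672 and 3604 to 1227, 1370 and 1414 (-1.40, adjusted p = 2.17e-13), and KLF4 and KLF5 fell by 0.56 and 0.57. The factors called higher numbered 3, and only 1 without R4VPL3-1 replicate 1.

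Output genes of the ERK pathway were mostly lower while the kinases themselves were nearly flat. Of 19 ERK feedback and output genes, 16 were lower and 2 higher, with a median of -0.55. DUSP6, the cytoplasmic phosphatase that inactivates ERK, fell from 7056, 5983 and 6036 to 1374, 1825 and 1961 (-1.90 ± 0.09, adjusted p = 1.40e-12). IER3 fell from 4793, 3845 and 4039 to 947, 1176 and 1066 (-1.99, adjusted p = 6.98e-14), and the receptor-pathway inhibitor SPRY2 from 7272, 7324 and 7214 to 2154, 2610 and 2600 (-1.57, adjusted p = 4.72e-14). In none of the 3 did a degrader library reach the control range. PHLDA1 fell by 1.69, SPRY4 by 1.22 and DUSP4 by 1.19, and cyclin D1 (CCND1), which drives entry into the cell cycle, went from 30024, 26086 and 24002 to 17632, 18664 and 17556 (-0.57). ETV5, an ETS factor, was higher (0.40), as was DUSP5 (0.31), and the count of 2 was 1 without DMSO replicate 3 or without R4VPL3-1 replicate 2.

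The inducible phosphatases did not move as a block, with 3 higher and 4 lower of 10. DUSP1, a nuclear phosphatase of JNK and p38, rose from 314, 339 and 366 to 1277, 1152 and 924 (1.70, adjusted p = 9.12e-11), and DUSP2 rose by 0.97. DUSP10, which also acts on JNK and p38, fell from 1841, 2322 and 2028 to 553, 510 and 538 (-1.94, adjusted p = 1.85e-13). Of 16 kinases and GTPases from RAS to ERK, 0 were higher and 2 lower, among them NRAS (-0.20). BRAF, the kinase that PLX4032 inhibits, had 844, 726 and 742 in DMSO and 818, 723 and 795 in R4VPL3-1, overlapping ranges with a difference of 0.02 (adjusted p = 0.912).

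**Figure D3:**
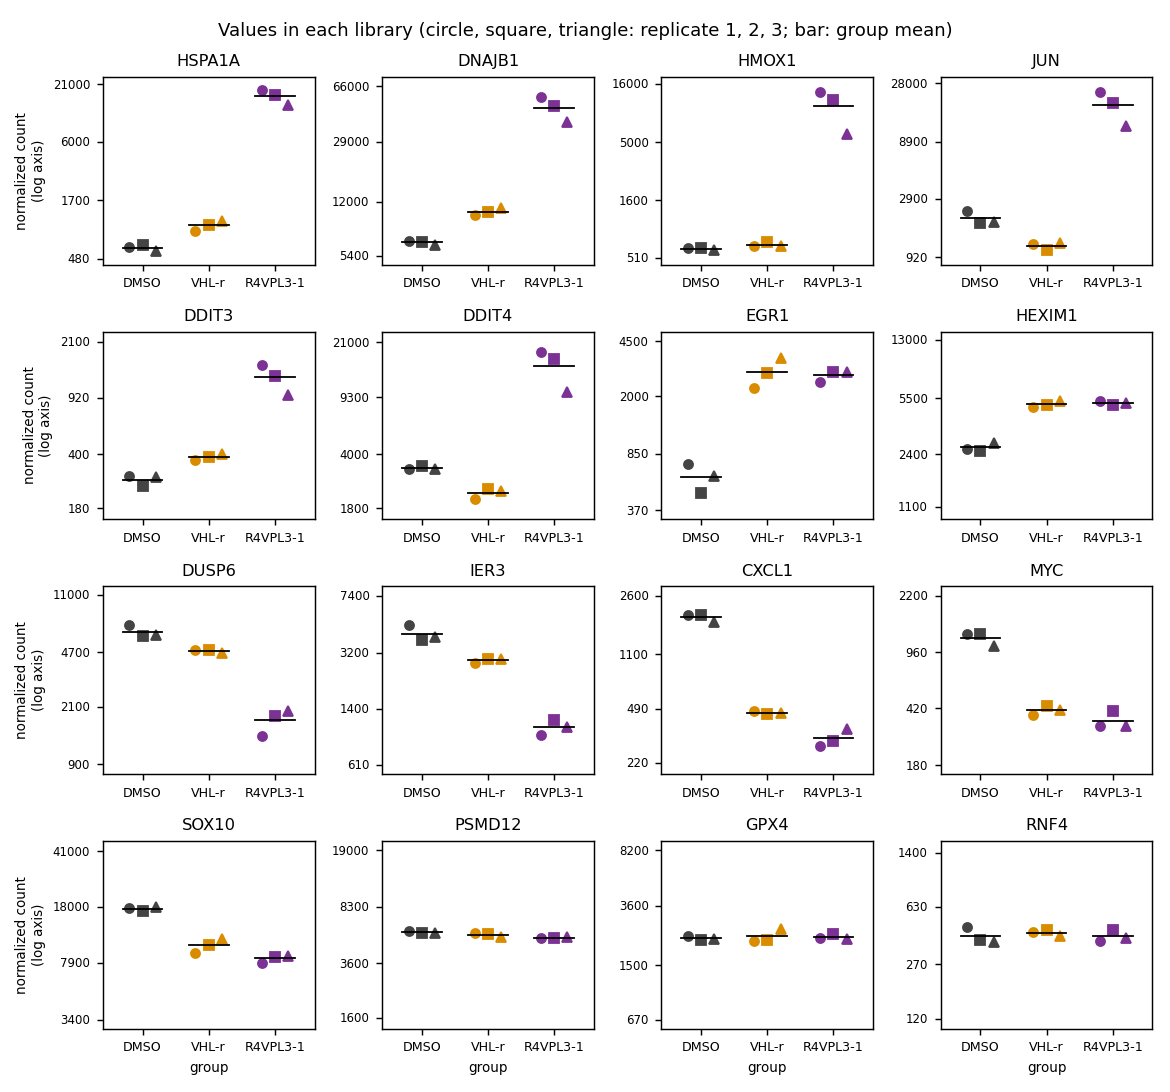
Normalized counts of 16 genes in the 9 libraries, a panel for each gene, with DMSO, VHL-r and R4VPL3-1 side by side, circles, squares and triangles for replicates 1, 2 and 3, and a bar at each group's mean. HSPA1A, HMOX1 and JUN are far higher in R4VPL3-1 than in either other group, EGR1 and HEXIM1 are at similar heights with both compounds, and GPX4 and RNF4 overlap in all groups.

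Cytokine genes under NF-kB fell. NF-kB is the factor through which inflammatory signals turn on chemokines and survival genes, and the promoter of CXCL1, a neutrophil-attracting chemokine, is shown because it holds a pair of such sites: chr4:73869143-73869442 on the + strand, with capitals marking matches to GGNNNTTCC that begin 78 and 53 bases before the start.
CXCL1: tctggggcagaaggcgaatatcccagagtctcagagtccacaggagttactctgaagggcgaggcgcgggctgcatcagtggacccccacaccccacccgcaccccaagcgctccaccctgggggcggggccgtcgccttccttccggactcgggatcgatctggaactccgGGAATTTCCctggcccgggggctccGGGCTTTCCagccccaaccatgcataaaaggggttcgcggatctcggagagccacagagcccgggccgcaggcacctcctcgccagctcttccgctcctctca
This loose pattern, searched on both strands, was present in 15 of 18 listed NF-kB targets (83.3%). It was present in 28.6% of tested genes and in 30.6% of the 121 genes with a promoter that fell by 2-fold or more. The list is one of known NF-kB targets, so the first share describes how it was drawn up. CXCL1 stood at 1965, 1953 and 1769 in DMSO and at 285, 306 and 366 in R4VPL3-1, so that the control mean was 5.94 times higher (-2.57 ± 0.08, adjusted p = 6.55e-15). LIF, a cytokine of the interleukin-6 family, fell from 5051, 3526 and 2958 to 476, 638 and 525 (-2.79, adjusted p = 8.87e-12), and CXCL8 from 1652, 1868 and 1678 to 668, 705 and 825 (-1.24, adjusted p = 1.87e-10). Neither CXCL1, LIF nor CXCL8 had a degrader library within the control range. TNFAIP3, an inhibitor that NF-kB induces, fell by 1.40, and NFKBIA, the inhibitor that holds NF-kB in the cytoplasm, by 0.31. In total 13 of 23 tested targets were lower and 2 higher, NFKBIE (0.56) and IRF1 (0.46), with a median of -0.88. Of 13 tested interferon-stimulated genes 2 were higher and 1 lower, near the share of all genes.

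Secreted ligands and the targets of YAP and of TGF-beta and BMP leaned downward too, while the Wnt and Notch lists were small and mixed. Of 16 growth factor and cytokine genes 9 were lower, among them INHBA (-1.52) and PDGFA (-1.12), and HBEGF (0.92) and VEGFA (0.32) were higher. DKK1, a secreted Wnt inhibitor, fell from 3977, 3858 and 2985 to 547, 619 and 547 (-2.65 ± 0.09, adjusted p = 8.99e-15). HES1, the repressor that Notch signalling induces, fell from 775, 624 and 782 to 175, 192 and 208 (-1.91, adjusted p = 6.89e-12). Both genes were separated from the control by a wide gap. Of 5 tested Wnt targets 1 was higher and 2 lower, and of 7 Notch targets and ligands 1 was higher and 3 lower. The Notch median was 0.11, 0.20 and -0.46 in degrader replicates 1, 2 and 3. DLL4 of that list rose by 1.86 from a DMSO mean of only 3.54. Of 22 YAP targets 13 were lower, with a median of -0.28: ANKRD1 by -1.67, CCN1 by -1.18 and CCN2 by -1.06. The 1 YAP target called higher became 3 without DMSO replicate 1 or R4VPL3-1 replicate 3. Of 16 TGF-beta and BMP targets 8 were lower, led by the co-repressor TGIF1 (-1.08), and SMAD7, the inhibitor of the pathway, fell by 0.86, while ID2, a BMP target that blocks differentiation factors, rose from 231, 183 and 241 to 393, 413 and 466 (0.96). SOCS1, which restrains cytokine receptors, was listed at 5.45, 0 and 5.07 in DMSO and at 41.1, 38.8 and 53.5 in R4VPL3-1 (3.73, and 2.85 without DMSO replicate 2), and CISH rose by 1.27 where SOCS2 fell by 0.87. RIPK4, a kinase of epidermal differentiation, fell from 1407, 1541 and 1379 to 188, 237 and 219 (-2.75, adjusted p = 8.99e-15).

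A few antioxidant genes rose steeply above a list that otherwise moved little. HMOX1, heme oxygenase-1, which breaks down heme and releases iron (ENSG00000100292), stood at 618, 621 and 593 in DMSO and at 13646, 11465 and 5951 in R4VPL3-1, 17.0 times the control mean (4.00 ± 0.17, adjusted p = 3.54e-13). The degrader libraries differed among themselves by more than in most genes, replicate 3 being the lowest, and all lay far above the control. OSGIN1 rose from 173, 176 and 194 to 1533, 1272 and 904 (2.73, adjusted p = 1.16e-12). Both subunits of the enzyme that begins glutathione synthesis rose, GCLM by 0.57 and GCLC by 0.52, as did FTL of the iron store ferritin (0.54), TXNRD1 (0.40) and NQO1 (0.26). In total 15 of 33 NRF2 targets were higher and 0 lower, with a median of 0.14. The antioxidant response element core TGACNNNGC was present on either strand in 26.1% of 23 of these genes and in 19.4% of all tested genes. The list is one of known NRF2 targets, so the first share describes how it was drawn up.

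Because HMOX1 and glutathione genes also belong to ferroptosis, an iron-dependent form of cell death, that pathway was counted separately. Of 39 tested genes 13 were higher and 5 lower. With 46.2% called beside 24.9% of all genes the list was strong by the description above, but its members moved both ways and its median was 0.04. GPX4, the lipid peroxide reductase that holds ferroptosis in check, had 2316, 2174 and 2215 in DMSO and 2225, 2380 and 2213 in R4VPL3-1, a difference of 0.02 (adjusted p = 0.825) with overlapping groups. The cystine importer SLC7A11 went from 671, 689 and 714 to 949, 767 and 793 (0.27, adjusted p = 0.0133), and it was not called without R4VPL3-1 replicate 1 (adjusted p = 0.121). PTGS2, often read as a ferroptosis marker, fell by 0.99. Of 17 selenoprotein genes 2 were higher and 1 lower. In the necroptosis machinery 0 of 22 were higher and 7 lower, a share of 31.8% that lay near the background of 24.9%. VHL-r against DMSO also called 0 higher and 7 lower. Among the 7 lower with R4VPL3-1 were BIRC3 (-1.01), an inhibitor of apoptosis, and FADD (-0.70), the adaptor of death receptors.

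In the BCL2 family the members called higher were mostly those that promote death. BCL2L11 (BIM) rose from 275, 283 and 291 to 866, 773 and 910 (1.58, adjusted p = 1.85e-11), PMAIP1 (NOXA) from 698, 713 and 665 to 1533, 1377 and 1582 (1.11) and BBC3 (PUMA) by 0.92. BIK (1.45) and MCL1 (0.24), a protector from death, were the others called higher, while BCL2A1, BMF and BCL2L1 fell by 0.67, 0.67 and 0.43. That is 5 higher and 3 lower of 16. VHL-r against DMSO called 5 higher and 2 lower, and R4VPL3-1 was above VHL-r in 1 and below it in 0. Of 28 targets of p53, the DNA damage factor, 14 were higher and 4 lower. SESN2, which restrains mTORC1, rose from 565, 604 and 632 to 2454, 2209 and 2106 (1.91, adjusted p = 7.46e-14), whereas the cell cycle inhibitor CDKN1A rose by 0.37 and MDM2, which degrades p53, fell by 0.21.

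Genes of the integrated stress response rose in large part, whereas tRNA synthetases and cytosolic ribosomal proteins were flat. DDIT3 (CHOP), a stress factor downstream of ATF4, rose from 290, 249 and 285 to 1492, 1271 and 959 (2.15 ± 0.11, adjusted p = 9.80e-12). CHAC1, which degrades glutathione, rose from 146, 114 and 110 to 981, 789 and 550 (2.61, adjusted p = 7.26e-11), and DDIT4, an inhibitor of mTORC1 that hypoxia also induces, from 3215, 3355 and 3226 to 18120, 16346 and 10017 (2.14, adjusted p = 7.26e-11). Each of the 3 had its highest value in R4VPL3-1 replicate 1 and no overlap with the control. ATF4 itself rose by 0.65, CTH of cysteine synthesis by 1.42 and PPP1R15A, which reverses the block on initiation, by 0.65. The count was 16 higher and 2 lower of 29, with a median of 0.22. The core TGATGNAA to which ATF4 and its partners bind was present on either strand in 21.7% of 23 of these genes. Over all tested genes the share was 2.92%. The list is one of known genes of this response, so the first share describes how it was drawn up. Of 20 cytosolic tRNA synthetases, several of which are known ATF4 targets, 0 were called in either direction.

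Of 74 tested cytosolic ribosomal proteins 1 was higher, RPL39 (0.19), a call lost in 6 of 20 other settings, and 0 were lower. Their differences ran from -0.06 to 0.19. Of 40 translation initiation factors 6 were higher and 2 lower, and of 47 nucleolar biogenesis genes 1 was higher and 9 lower, with a lowest value of -0.46. The host genes of small nucleolar RNAs moved unlike the ribosomal proteins with which many share a 5′ terminal oligopyrimidine tract: 7 of 14 were higher and 1 lower, with a median of 0.21. GAS5 rose from 5456, 5670 and 6039 to 8322, 7458 and 6978 (0.40, adjusted p = 1.10e-05), ZFAS1 by 0.83 and SNHG1 by 0.64.

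**Figure D4:**
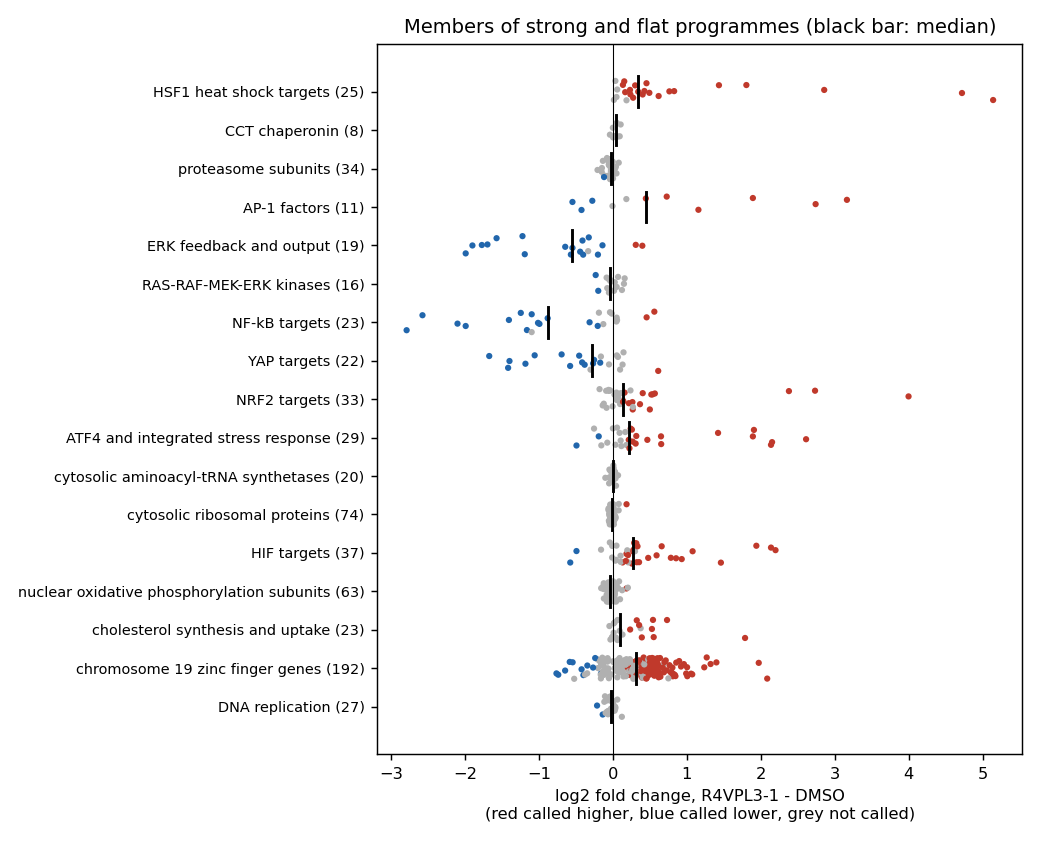
Log2 fold change of R4VPL3-1 over DMSO for each tested member of 17 gene lists, coloured by call, with a black bar at each list's median. Single genes above 2 stand out in the heat shock, AP-1, NRF2 and ATF4 lists, ERK feedback and NF-kB members lie mostly below 0, and ribosomal proteins span -0.06 to 0.19.

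Genes that hypoxia induces were also higher. VHL is the receptor through which HIF factors are degraded in normal oxygen, and both compounds carry a moiety that binds it. Of 37 tested HIF targets 23 were higher and 2 lower, with a median of 0.28. With VHL-r against DMSO 10 were higher and 4 lower, with a median of 0.09. The part of VHL binding in these changes was not tested. ANKRD37 rose from 163, 170 and 173 to 749, 692 and 532 (1.94, adjusted p = 5.05e-11), and MIR210HG, the host of the hypoxia microRNA miR-210, from 18.2, 18.7 and 20.3 to 105, 94.5 and 76.0 (2.20, adjusted p = 4.02e-06). The glucose transporter SLC2A3 rose by 1.08, BNIP3 of mitophagy by 0.66 and VEGFA from 1758, 1732 and 1622 to 2298, 2104 and 1975 (0.32). PFKFB4, a regulator of glycolysis that HIF induces, fell by 0.58. Among the genes of oxygen sensing EGLN3 (1.46) and EPAS1 (0.66) were higher and HIF1A was lower (-0.25). TXNIP, which limits glucose uptake, rose from 1210, 1665 and 1535 to 6984, 6537 and 6316 (2.18, adjusted p = 2.39e-14).

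Enzymes of central metabolism were near or under the background. Of 14 glycolytic enzymes 3 were higher, HK2 by 0.48, and 0 lower. Of 63 nuclear-encoded oxidative phosphorylation subunits 1 was higher and 0 lower, though 3 were called lower without R4VPL3-1 replicate 3, and of 19 TCA cycle enzymes 0 were higher and 2 lower. The 13 protein genes of the mitochondrial genome went another way than the nuclear subunits of the same complexes, 7 higher and 1 lower with a median of 0.17. All their changes were small, as in MT-ND4 (0.21, adjusted p = 0.00572), and the single fall, of MT-CO1, rests on a gene that shares 27.9% of its windows with a nuclear copy and was lost in 4 of 20 other settings. Of 69 mitochondrial ribosomal proteins 2 were higher and 10 lower, 17.4% beside the 24.9% of all genes. Sterol genes rose in part, 9 of 23 higher and 0 lower with a median of 0.09. INSIG1, the brake on sterol synthesis, rose from 848, 881 and 921 to 3442, 2987 and 2757 (1.79, adjusted p = 1.18e-13), and IDI1 of the isoprenoid steps rose by 0.73. Of 16 fatty acid genes 4 were higher and 1 lower, with FASN at 0.36.

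Among genes of transcription control MYC fell from 1253, 1254 and 1049 to 320, 401 and 321 (-1.77 ± 0.09, adjusted p = 9.80e-12). Its antagonist MXD1, which competes for the partner MAX, rose from 540, 513 and 533 to 2083, 1696 and 1455 (1.71, adjusted p = 6.03e-12). HEXIM1, which holds the elongation kinase P-TEFb inactive, rose from 2597, 2531 and 2848 to 5299, 4978 and 5144 (0.95, adjusted p = 1.27e-11), and the kinase subunit CDK9 fell by 0.38. The BET reader BRD2 rose by 0.85. In the 9 genes of P-TEFb and BET 5 were higher and 1 lower, and the 5 became 3 without DMSO replicate 1, DMSO replicate 2 or R4VPL3-1 replicate 1. The splicing kinase CLK1 rose from 907, 941 and 957 to 3126, 2535 and 2147 (1.46, adjusted p = 6.86e-11), whereas 4 SR proteins were lower, from -0.14 to -0.45.

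Zinc finger genes on chromosome 19, most of which encode KRAB repressors, gave the largest number of rises of any list. Of 192 tested, 94 were higher and 11 lower, beside 13.1% and 11.8% of all genes, with a median of 0.31. ZNF442 rose from 26.3, 42.3 and 32.5 to 146, 132 and 154 (2.09, adjusted p = 7.31e-08) and ZNF627 by 1.27. The 11 became 6 or 7 when any of DMSO replicates 2 and 3 and R4VPL3-1 replicates 2 and 3 was left out. Many of these genes resemble one another, so reads may be shared between them. Of 15 replication-dependent histone genes that met the filter 8 were higher and 0 lower, with a median of 0.77. Their levels were low, as in H2BC11 with 24.5, 32.5 and 21.3 against 113, 82.6 and 52.5 (1.58), and with a mean of at least 50 required the 8 became 2.

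Cell cycle genes were quiet apart from G1 regulators. Of 17 G1 genes 4 were higher and 5 lower, the inhibitor CDKN1B by -0.57 and CCND1 as given above. Of 27 DNA replication genes 0 were higher and 2 lower, of 22 mitosis genes 2 and 3, and of 17 homologous recombination genes 0 and 0. Of 10 pigment lineage genes SOX10 and MITF were lower and PAX3 was higher (0.32). SOX10 fell from 17699, 17007 and 17935 to 7900, 8562 and 8752 (-1.06 ± 0.06, adjusted p = 1.56e-11), and MITF, the master factor of melanocytes, from 1497, 1676 and 1994 to 893, 906 and 1235 (-0.77, adjusted p = 9.87e-06). Both falls were larger than the spread of their replicates. In the list for the dedifferentiated melanoma state 6 of 15 were lower, WNT5A by -0.96 and NGFR by -0.31, and 3 were higher, JUN among them, or 1 without DMSO replicate 2 or R4VPL3-1 replicate 2. Of 15 circadian clock genes 5 were higher, CRY2 by 1.03 and PER1 by 0.87, and 0 lower.

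Outside protein-coding genes, 332 of 2316 long noncoding RNAs were higher (14.3%) and 194 lower (8.38%), beside 13.1% and 11.8% of all genes. In all 22.7% of them were called, near the 24.9% of all genes. Among microRNA host genes the host of miR-221 and miR-222, MIR222HG, fell by 2.01 and MIR22HG rose by 1.01. Several of the steepest rises were genes with almost no reads in control cells that lie just behind an expressed gene on the same strand. Of the genes that rose by 2-fold or more, 34.8% (137 of 394) overlapped a tested gene of the same strand or began within 5 kb of its end, against 13.3% of all tested genes and 5.13% of those that fell by 2-fold or more. Many of these risers had a DMSO mean below 10 and so met the filter through their own rise. With a DMSO mean of at least 10 the shares were 31.9% of the risers (82 of 257) and 12.9% of all. RN7SL472P, listed at 5.45, 0.98 and 1.01 in DMSO and at 60.7, 37.8 and 28.9 in R4VPL3-1, begins 3270 bases behind HSP90AA1. PNLDC1, at 1.82, 0 and 2.03 against 37.4, 20.9 and 22.5, begins 1813 bases behind MRPL18, which itself rose by 0.47. Whether such counts are reads that run on from the gene in front was not tested. TTN, which encodes the muscle protein titin, was at 0.91, 3.94 and 4.06 against 57.0, 49.7 and 68.5. The size of such folds depends on the constant added before the log: with 0.1, 1 and 5 the change of TTN was 4.50, 4.02 and 3.01.

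The response was then set beside that to VHL-r, the same VHL-recruiting moiety without linker and RNF4 binder, at the same dose and time. VHL-r against DMSO called 10.3% of genes higher and 9.51% lower, and both comparisons share their control libraries, so their values are given side by side and only R4VPL3-1 against VHL-r tests a difference. That contrast called 174 genes higher (1.14%) and 111 lower (0.729%) with the degrader, 285 in all and 182 without R4VPL3-1 replicate 1. Of the 3792 genes called against DMSO 248 were also called against VHL-r, 151 of them higher and 95 lower in both, and 2 in opposite directions. Among the genes changed by 2-fold or more, 60 of the 396 that rose and 40 of the 195 that fell were called against VHL-r. In the 60, the median log2 change from DMSO was 1.72 with R4VPL3-1 and 0.58 with VHL-r, and in the other 336 it was 1.38 and 1.20. The sets were divided by that same contrast, so a wider gap in the 60 follows from the choice and nothing is read from it.

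Members that differed between the compounds lay in many lists. HSF1 targets were above VHL-r in 15 of 25, ATF4 genes in 10 of 29, HIF targets in 10 of 37, NRF2 targets in 7 of 33 and sterol genes in 7 of 23. Among snoRNA host genes 5 of 14 and among mitochondrially encoded genes 4 of 13 were above it. ERK feedback genes were below it in 6 of 19, NF-kB targets in 5 of 23, and TGF-beta and BMP targets in 5 of 16. Against DMSO, VHL-r lowered 15 and raised 2 ERK feedback genes, where R4VPL3-1 lowered 16 and raised 2. For NF-kB targets the counts were 14 and 3 with VHL-r and 13 and 2 with R4VPL3-1. YAP targets had 12 and 0 beside 13 and 1, and Kruppel-like factors 9 and 2 beside 8 and 3. HSF1 targets differed more, with 7 raised and 0 lowered by VHL-r beside 20 and 0. Other lists differed both ways: 7 immediate early genes outside AP-1 were above VHL-r and 8 below, of 25. The inducible phosphatases had 2 above and 3 below, of 10, and YAP targets 1 and 5, of 22. HMOX1 had 644, 695 and 649 with VHL-r, close to its control values, and the degrader was higher by 3.88 ± 0.17 (adjusted p = 3.27e-12). JUN had 1195, 1064 and 1229 with VHL-r, under its control values, and the degrader was higher by 3.93 ± 0.14 (adjusted p = 1.14e-13). DUSP6 had 4834, 4896 and 4618 with VHL-r, between the other groups, and the degrader was lower by 1.49 (adjusted p = 5.66e-10).

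Other members stood at nearly one level with both compounds, and for these the 95% interval of the difference is given. EGR1 had 2241, 2797 and 3525 with VHL-r, and R4VPL3-1 minus VHL-r lay between -0.32 and 0.22. HEXIM1 had 4808, 4942 and 5270, with an interval from -0.07 to 0.15. BCL2L11 had 821, 726 and 937, with an interval from -0.14 to 0.22, and ARC had 251, 275 and 336, with an interval from -0.27 to 0.32. These ranges overlapped those of the degrader in EGR1, HEXIM1, BCL2L11 and ARC. For MYC, with 379, 430 and 408, the interval ran from -0.42 to -0.03 although the adjusted p was 0.370, so a somewhat lower level with the degrader was not resolved.

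The degrader replicates did not spread evenly. Among the 60 genes that rose by 2-fold or more and were called above VHL-r, replicate 1 was the highest of the 3 in 53 and replicate 3 the lowest in 49. Among the 336 other genes that rose that far the numbers were 200 and 154. Of the 40 genes that fell by 2-fold or more and were called below VHL-r, replicate 1 was the lowest in 30, and of the 155 others in 69. The change of HMOX1 was 4.35 in place of 4.00 when replicate 3 was left out.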

How the data were processed

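Libraries were prepared with a directional kit, and per the study's methods the authors aligned reads with STAR to GRCh38, counted them per Ensembl gene with htseq-count on the reverse strand and divided by DESeq2 1.36.0 size factors. The deposited values are this signal (normalized counts, never negative). Every value was a whole read within 0.05 of a read once its library's step was removed, which gave the depths.

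Genes reaching a mean of 10 over the 9 libraries (15230) were fitted together as log2(value + 1) with limma 3.58.1 (R 4.3.3; empirical Bayes with a trend, 3 group means), with Benjamini-Hochberg adjustment at 0.05. The procedure was tested on simulated data. Alternatives were count models fitted to those whole reads (edgeR 4.0.16, DESeq2 1.42.0), other constants, filters, scalings, a replicate block and each library left out. Named genes, of those with a symbol, were the 15 largest rises and falls without overlap of the groups, the 10 largest each way with a mean of at least 1000, the 10 furthest each way from VHL-r, RNF4, VHL, genes moving in opposite directions with the compounds, and listed members. The lists and named members were chosen with earlier results of these data known. Gene positions are those of the deposited table. Strands were taken from GENCODE 44, whose start and end matched 15126 of the tested genes. Some genes are not reported here.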

Additional observations from a re-analysis of the deposited data

Results flagged for a closer look

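A group of 13 genes was called against DMSO with both compounds in opposite directions, and R4VPL3-1 against VHL-r called each of them. With R4VPL3-1, 9 were higher than in DMSO and 4 lower. The log2 difference between the compounds was 3.93 for JUN (3.16 with R4VPL3-1 and -0.77 with VHL-r against DMSO), 2.67 for DDIT4 (2.14 and -0.53), 1.25 for RHOB (0.63 and -0.62) and 0.64 for the zinc exporter SLC30A1 (0.41 and -0.22). It was 1.30 for NEAT1 (0.51 and -0.79), 1.05 for KLF2 (0.45 and -0.60), 0.45 for ZNF473 (0.22 and -0.23) and 1.12 for ENSG00000268858 (0.56 and -0.56). ENSG00000285565, which shares most of its sequence with HSPA1B, is listed with a difference of 7.24 (6.22 and -1.02), but it had only 3.63, 1.97 and 4.06 normalized counts in DMSO and 1.00, 1.05 and 1.02 with VHL-r, about 1 read a library, so neither its fall with VHL-r nor the size of its folds can be relied on. The pseudokinase gene TRIB1 went from 894, 861 and 938 in DMSO to 1161, 1099 and 1151 with VHL-r and 412, 464 and 530 with R4VPL3-1, a difference between compounds of -1.28. For DLX2 it was -0.71 (-0.35 and 0.37), for KLF10 -0.65 (-0.33 and 0.33) and for TRIM25 -0.32 (-0.16 and 0.16). KLF2 and NEAT1 had a degrader library within the control range, and the calls of KLF2, NEAT1, ZNF473, DLX2 and TRIM25 against DMSO were lost under at least 1 other setting.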

How the results depend on the processing

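Of 189 named genes, 167 kept their direction and their side of the threshold in every setting run, and none reversed. Requiring a mean of at least 50 left 263 genes changed by 2-fold or more, against 591. An adjusted p of at most 0.01 left 2494 called, 1318 higher and 1176 lower. With 1 library left out in turn, 2866 to 3895 genes were called, 1454 to 2027 higher and 1412 to 1868 lower, 508 to 652 changed by 2-fold or more, and 182 to 358 differed from VHL-r. The recovered reads gave 3857 calls with edgeR and 3519 with DESeq2, of which 3704 and 3480 were shared with the limma calls. The deviations of same-numbered DMSO and R4VPL3-1 libraries from their group means had correlations of -0.006, 0.021 and 0.06. Such values over all genes cannot settle whether the numbers mark a pairing. With a replicate block 4241 genes were called, 2187 higher and 2054 lower, beside 3792, 1995 and 1797 without it. Scaling to the upper quartile put 2217 higher and 1642 lower. Of the 29 strong lists, 3 changed the sign of their median in a setting, the BCL2 family, Notch and microRNA hosts. With 3 libraries a group and few reads, changes of weakly expressed genes are the least certain in size.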
